A study of Rattus norvegicus with 6 samples.

Results

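The genes described here are those of the solute carriers, the membrane proteins that move amino acids, sugars, ions, metals and organic acids across cell membranes, in a bile duct cancer strain and in a fibroblastic strain of the same tumour model. Members were all probe sets whose single annotated symbol is Slc followed by a number, leaving out the mitochondrial Slc25 family and 6 genes (Slc2a1, Slc2a3, Slc16a3, Slc7a11, Slc4a2 and Slc10a2). This gave 336 of 31099 probe sets on the array, which read 249 of the 14217 genes with a single symbol. RNA was measured on 6 rat expression arrays, 3 of each strain. BDEsp-TDECC (TDECC below) is a clonal cholangiocarcinoma cell strain, and BDEsp-TDESM (TDESM) is a clonal cancer-associated fibroblastic cell strain that the labels describe by overexpression of Acta2. Both were isolated from orthotopic tumours of Fischer 344 rats, young adult males, into whose bile duct spontaneously transformed rat cholangiocytes (BDEsp cells) had been placed. All 6 samples carry the same text on growth, a 3-dimensional culture in collagen gel, and on treatment, the TGF-beta inhibitors SB 431542 and LY2157299, and leave unsaid to which of them it applied; treatments are therefore not compared. Each group is 1 clone. The labels do not state whether its arrays are of separate cultures, and the p-values rest on a spread between arrays that may be only technical.

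Solute carriers are grouped into numbered families by sequence. Most use the sodium, proton or membrane-voltage gradients kept up by ATP-driven pumps, or let a substrate run down its own gradient. In bile duct epithelium they are best known for the bicarbonate and chloride transport that makes bile alkaline and watery, and in matrix-secreting cells for loading the endoplasmic reticulum and Golgi with the metals and sugars that secreted proteins need.

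The deposited values are log2 intensities, and all differences below are TDESM minus TDECC on that scale. The labelled cell types were borne out by their markers: the mean of 6 epithelial genes was 13.54 to 13.78 on the TDECC arrays and 4.79 to 4.93 on the TDESM arrays, and the mean of 9 fibroblast genes was 5.06 to 5.32 and 13.05 to 13.12. Acta2 stood at 6.02, 6.10 and 7.71 on the TDECC arrays and 11.53, 11.67 and 11.60 on the TDESM arrays, which checks the labels and is no finding. Markers of other cells stood mostly low: means per array were 5.17 to 5.87 for 6 leukocyte genes, 4.06 to 4.36 for 4 endothelial, 4.52 to 4.94 for 5 hepatocyte and 3.89 to 5.29 for 4 neural genes. Cd14, at 8.65, 10.88 and 11.64 on the TDECC arrays and 8.63, 8.67 and 8.90 on the TDESM arrays, and Snap25, at 9.67 on TDECC replicate 2, were above that. Over these 19 genes the median level was 4.40, which serves below as the level of genes that neither strain should use. Values near 4.40 are called background below; they are not a measured absence, since no detection call was used. In bulk RNA, fewer cells of a type and less RNA per cell cannot be told apart.

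Solute carrier genes differed in both directions: amino acid carriers such as Slc38a4 and zinc carriers such as Slc39a14 were more often higher in TDESM, while the bicarbonate carrier Slc4a4 and the choline carrier Slc44a1 were lower. Of 249 members, 53 were higher and 40 lower in TDESM by limma at an adjusted p of 0.05, and 156 were not called. That is 37.3% of members, beside 42.7% of all 14217 genes (22.1% higher and 20.6% lower). The values of the strains did not overlap for 46.2% of members, beside 53.6% of all genes. The median difference was 0.02 for members and 0.00 for all genes. By size, a change of 2-fold or more was called for 39 members upward and 27 downward, together 26.5% of members beside 25.5% of all genes, and 5 members, 3 higher and 2 lower, passed 32-fold, where 2.45% of all genes did.

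Many carriers had a low mean signal. A mean over all arrays below 5.80, the lowest array median, was found for 48.2% of members and 32.7% of all genes. Of the 120 members below it 12.5% were called (18.4% of all such genes), and of the 129 members above it 60.5% were called (54.4% of all such genes).

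The direction of these counts depends on the scaling of the arrays. With 18 housekeeping genes set equal the median gene moved by -0.15, and 48 members were higher and 51 lower; of all genes 2642 were then higher and 3818 lower, against 3135 and 2930. With the spiked-in poly-A transcripts set equal it moved by -1.22, and 21 members were higher and 193 lower (898 and 10873 of all genes). These controls read 7.22 to 7.65 on the TDECC arrays and 8.34 to 9.03 on the TDESM arrays, and with them limma gave all genes 1 common spread. On that scale 16 of the 53 members higher in TDESM turned sign, 3 of them with a call, and 29 lost the call. The 21 that stayed called higher were those with a difference of 1.97 or more, so every smaller rise given below, such as those of Slc20a1, Slc20a2, Slc31a1, Slc31a2, Slc1a4 and Slc35b1, lost its call or turned. All differences below are thus stated against the median gene.

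**Figure D1:**
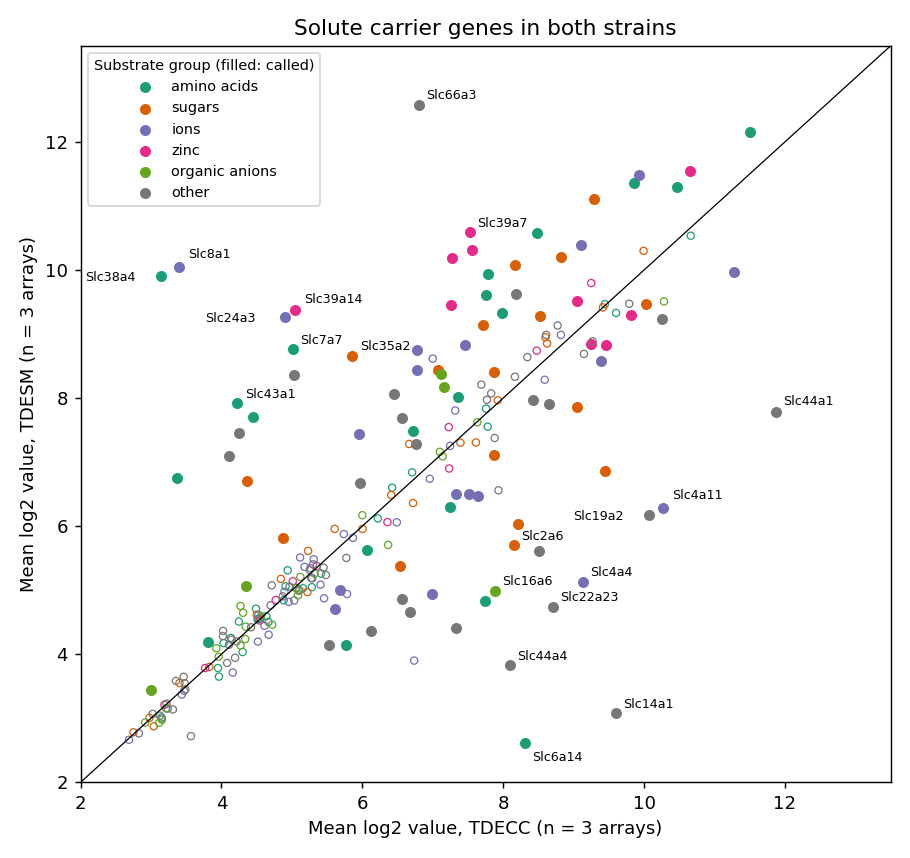
Mean log2 value of each of 249 solute carrier genes in TDECC (x axis) and TDESM (y axis), 3 arrays each; filled points were called by limma, open points were not, colours give the substrate group and the line marks equal levels. Slc38a4 and Slc8a1 lie far above the line and Slc14a1 and Slc6a14 far below it, while most open points lie on the line at low levels.

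**Figure D2:**
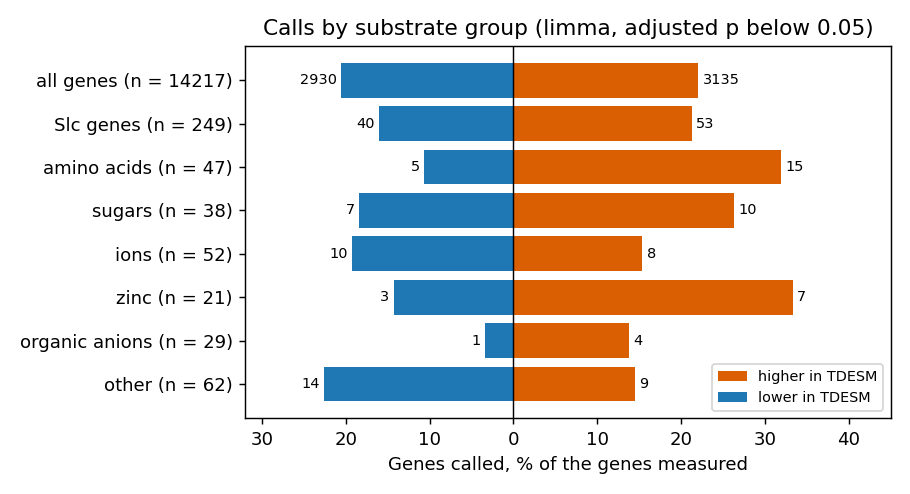
Share of genes called higher (right) or lower (left) in TDESM, in % of the genes measured in each group, with the number of genes at each bar. Amino acid carriers (15 higher, 5 lower) and zinc carriers (7 higher, 3 lower) lean to TDESM. The largest share called lower is that of the other carriers (14 of 62), close to the 20.6% of all genes.

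The amino acid carriers that differed were mostly higher in the fibroblastic strain, among them 5 members of the sodium-coupled family 38 and 3 light chains that pair with Slc3a2. Of 47 measured, 15 were higher, 5 lower and 27 not called (42.6% called, background 42.7%), with a median difference of 0.08. Centred on the poly-A controls the counts were 7 and 33. Slc38a4, a sodium-coupled carrier of neutral amino acids (SNAT4), read 3.23, 3.17 and 3.04 on the TDECC arrays and 10.07, 9.80 and 9.87 on the TDESM arrays. Every TDECC value was below the background level and every TDESM value far above it, a difference of 6.77 (SE 0.13, adjusted p = 1.42e-07).

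Slc3a2 encodes the heavy chain (CD98) that carries the light chains of the L and y+L amino acid systems to the cell surface. It stood at 10.37, 10.75 and 10.28 on the TDECC arrays and 11.16, 11.35 and 11.38 on the TDESM arrays, a difference of 0.83 (adjusted p = 0.00515). The groups did not overlap, though the sign turned under the poly-A centring, at -0.39. Its light chains did not move alike. Slc7a5 (LAT1), which exchanges large neutral amino acids, read 8.51, 9.19 and 7.74 on the TDECC arrays and 10.45, 10.58 and 10.72 on the TDESM arrays. Slc7a7 (y+LAT1), an exporter of cationic amino acids, read 5.81, 4.49 and 4.74 on the TDECC arrays and 8.53, 8.84 and 8.91 on the TDESM arrays. For both, the lowest TDESM value was above the highest TDECC value, with differences of 2.10 (adjusted p = 0.00229) and 3.75 (adjusted p = 1.33e-04). Slc7a6 (y+LAT2) was higher as well, by 1.34 (adjusted p = 0.00374). Slc7a8 (LAT2) was the reverse, at 7.24 in TDECC and 6.30 in TDESM, a difference of -0.94 (adjusted p = 0.00676). Slc7a10, a light chain for small neutral amino acids, was near background at 4.91 in TDECC and 5.06 in TDESM and not called. The second heavy chain, Slc3a1, and its partner Slc7a9, which take up cystine in kidney, were also near background (4.88 in TDECC and 4.84 in TDESM, and 3.96 in TDECC and 3.65 in TDESM). Of other family 7 members, Slc7a4, whose substrate is unsettled, was lower, at a difference of -1.63 (adjusted p = 0.00421), and the arginine carrier Slc7a1 was high in both strains, at 10.66 ± 0.64 in TDECC and 10.54 ± 0.15 in TDESM, and not called.

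Family 38 held 5 higher and 0 lower of 9 members, of which the other 4 were not called. Of all genes 22.1% were higher and 20.6% lower. Slc38a2 (SNAT2), which takes up glutamine and alanine, was bright in both strains. It read 11.45, 11.77 and 11.29 on the TDECC arrays and 12.15, 12.18 and 12.12 on the TDESM arrays, a difference of 0.65 (adjusted p = 0.0117); it was no longer called without TDESM replicate 2 (adjusted p = 0.0522; 0.00334 to 0.134 over all alternatives), and its sign turned centred on the poly-A controls, at -0.57. Slc38a10 differed by 2.15 (adjusted p = 1.89e-05), Slc38a6 by 0.76 and Slc38a7, a lysosomal glutamine carrier, by 0.65; the last 2 are below the poly-A shift. Slc38a1 (SNAT1) was not called by its brightest probe set, at 9.44 ± 0.09 in TDECC and 9.47 ± 0.03 in TDESM, but the mean of its 3 probe sets differed by 0.81, and 2 of them were called higher.

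The glutamate carriers of family 1 went in opposite directions. Slc1a3 (GLAST) was close to background in TDECC, at 4.36, 4.44 and 4.53, against 7.62, 7.71 and 7.77 on the TDESM arrays. Slc1a1 (EAAC1), an epithelial glutamate and cysteine carrier, stood at 9.22, 6.82 and 7.19 in TDECC and 4.98, 4.79 and 4.71 in TDESM. The groups of both genes were apart, but the TDECC values of Slc1a1 spread over more than 2 log2 units. Slc1a3 differed by 3.26 (adjusted p = 1.24e-06), or 2.24 averaged over its probe sets, and Slc1a1 by -2.92 (adjusted p = 0.00599). Of the neutral carriers in the family, Slc1a4 (ASCT1), which exchanges serine, alanine and cysteine, was higher by 1.86 (adjusted p = 0.00183), whereas Slc1a5 (ASCT2), a glutamine exchanger, stood at 9.60 ± 0.44 in TDECC and 9.33 ± 0.07 in TDESM and was not called.

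Slc6a14 (ATB0,+) is a concentrative epithelial carrier of neutral and cationic amino acids. It read 6.71, 8.50 and 9.71 on the TDECC arrays and 2.53, 2.62 and 2.69 on the TDESM arrays. TDESM lay at the bottom of the array's range and did not overlap with TDECC, whose arrays were widely spread. The difference was -5.69 (SE 0.67, adjusted p = 5.05e-04). In the same family Slc6a15, a carrier of branched-chain amino acids and proline, was higher by 3.39 (adjusted p = 3.56e-06), from 3.37 in TDECC and 6.76 in TDESM. Slc6a6, the taurine carrier, was bright in both strains and higher in TDESM by 1.50 (adjusted p = 0.00347). Slc6a20a, for proline and related imino acids, differed by -0.44; it was no longer called without any 1 TDESM replicate (adjusted p from 0.0619 to 0.0719). Slc43a1 (LAT3), a facilitative carrier of large neutral amino acids, stood at 4.23 in TDECC and 7.92 in TDESM, a difference of 3.70 (adjusted p = 1.32e-05). Slc16a10, for aromatic amino acids, differed by 0.39 at background level; it was no longer called without TDECC replicate 1 or 2 or any 1 TDESM replicate (adjusted p from 0.0534 to 0.128) and when arrays were centred on housekeeping genes (adjusted p = 0.221). The remaining members, among them the 3 proton-coupled carriers of family 36, were not called.

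**Figure D3:**
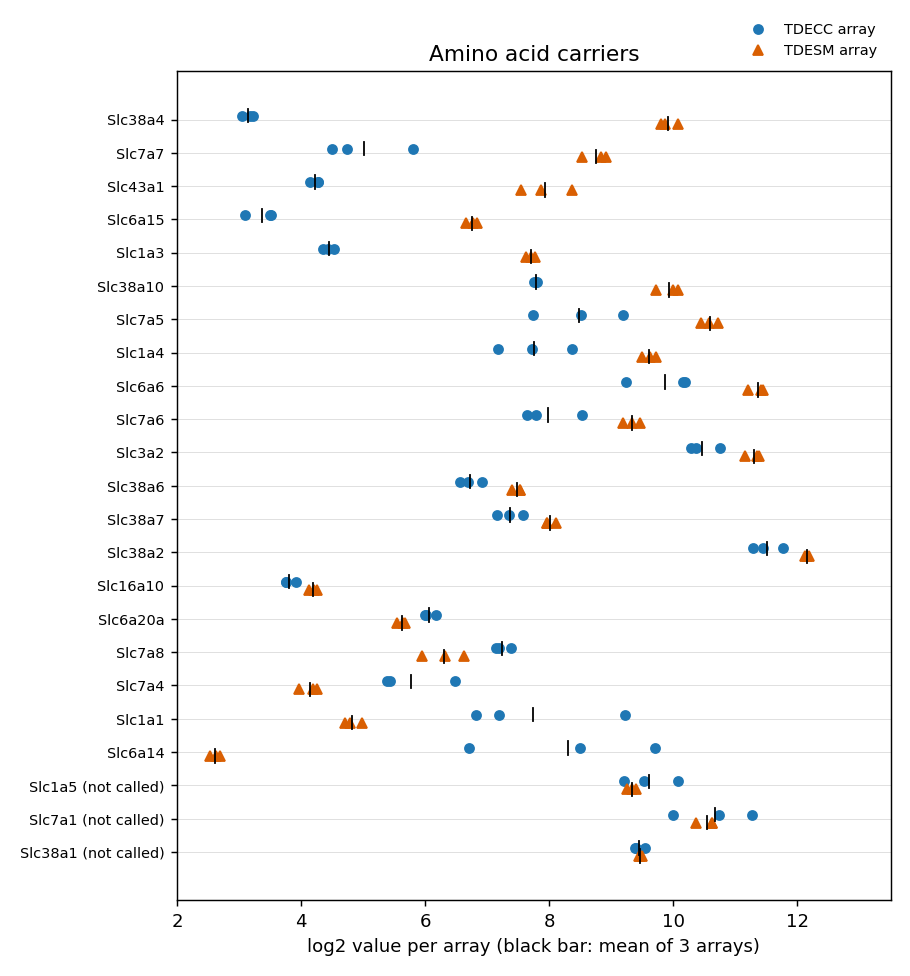
Values of each array for the 20 called amino acid carriers and 3 abundant ones that were not called, log2 scale on the x axis; circles are TDECC arrays, triangles TDESM arrays and black bars group means. The 15 higher members run from Slc38a4 to Slc16a10, and the TDECC arrays of Slc6a14 and Slc1a1 are widely spread.

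Genes that respond to amino acid shortage or make amino acids were listed beside the carriers. Of 28 measured, 10 were higher, 3 lower and 15 not called (46.4% called, background 42.7%), with a median difference of 0.49. Atf5, a stress-induced factor, differed by 3.53, Ddit3 (CHOP) by 1.88 and Gls2, a glutaminase, by 2.27. Atf4, the factor that drives this response and is controlled mainly in translation, stood at 12.62 in TDECC and 12.64 in TDESM; asparagine synthetase, Asns, differed by 0.64 (adjusted p = 0.217). Ass1, which makes arginine from citrulline, was lower, at a difference of -5.44 (adjusted p = 5.08e-06). So were Ddit4, at -2.36 (adjusted p = 0.00625), and Cebpb, at -0.92 (adjusted p = 0.0164). The binding site of ATF4 and C/EBP factors, the CARE, was searched as TGATGNAAN on both strands in RefSeq promoters of assembly GRCr8 (250 bases before to 50 after the start), which were matched for 204 of the 249 members. It stood in 3.97% of all 33469 promoters, in 3 of 38 promoters of amino acid carriers (Slc1a4, Slc7a1 and Slc38a1) and in 1 of 13 of those called higher. Outside the group, Slc35a2 was the other higher member with a match. Both higher members are printed 5′ to 3′ on the gene's strand, with the match in capitals; in Slc1a4 it lies on the opposite strand. Slc1a4 is at chr14:98761513-98761812 (minus strand) and Slc35a2 at chrX:17288564-17288863 (minus strand), both GRCr8.
Slc1a4: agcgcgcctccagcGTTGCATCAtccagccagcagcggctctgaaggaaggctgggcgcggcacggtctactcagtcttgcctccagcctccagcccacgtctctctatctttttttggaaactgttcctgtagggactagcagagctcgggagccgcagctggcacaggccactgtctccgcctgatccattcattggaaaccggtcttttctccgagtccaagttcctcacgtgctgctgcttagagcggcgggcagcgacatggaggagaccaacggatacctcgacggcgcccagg
Slc35a2: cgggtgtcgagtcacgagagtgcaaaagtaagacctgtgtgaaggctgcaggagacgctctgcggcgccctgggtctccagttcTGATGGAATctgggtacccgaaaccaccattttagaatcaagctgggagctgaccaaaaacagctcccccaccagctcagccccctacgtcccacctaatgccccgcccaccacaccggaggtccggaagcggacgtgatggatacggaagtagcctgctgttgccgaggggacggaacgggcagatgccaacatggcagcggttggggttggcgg

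Among zinc carriers, Slc39a14, Slc39a7, Slc39a6, Slc39a13 and Slc30a7 were higher in TDESM, each by more than 4-fold by its brightest probe set. Of 21 measured, 7 were higher, 3 lower and 11 not called (47.6% called, background 42.7%), with a median difference of 0.13, or -0.03 centred on housekeeping genes. Centred on the poly-A controls the counts were 5 and 14. Members that put zinc into the cytosol belong to family 39 (ZIP), and those that export it or load vesicles to family 30 (ZnT). Family 39 held 5 higher and 2 lower of 12, and family 30 held 2 higher and 1 lower of 9. Over all genes 22.1% were higher and 20.6% lower.

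Slc39a14 (ZIP14), which takes up zinc and also iron and manganese, was low in TDECC. It read 5.08, 5.00 and 5.05 on the TDECC arrays and 9.31, 9.41 and 9.41 on the TDESM arrays. TDECC lay near background with little spread and TDESM more than 4 log2 units above it, a difference of 4.33 (SE 0.11, adjusted p = 3.33e-07), or 3.09 with the mean of both probe sets. Slc39a7 (ZIP7), which releases zinc from the endoplasmic reticulum, read 7.66, 7.95 and 6.97 on the TDECC arrays and 10.27, 10.60 and 10.90 on the TDESM arrays. Slc39a13 (ZIP13), a carrier of the secretory pathway whose loss causes a connective tissue disorder, read 8.40, 7.44 and 6.82 on the TDECC arrays and 10.29, 10.27 and 10.37 on the TDESM arrays. In both, all TDESM values were above all TDECC values, by 3.06 (adjusted p = 1.46e-04) and 2.76 (adjusted p = 8.92e-04) on the means. Slc39a6 (ZIP6) differed by 2.92 (adjusted p = 1.07e-05), or 1.71 averaged over its 3 probe sets. Slc39a1 (ZIP1) was bright in both strains, at 10.65 ± 0.38 in TDECC and 11.54 ± 0.04 in TDESM, a difference of 0.89 that is below the poly-A shift.

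Of the vesicle loaders, Slc30a7 (ZnT7), which brings zinc into the Golgi, stood at 7.34, 6.96 and 7.48 on the TDECC arrays and 9.46, 9.41 and 9.49 on the TDESM arrays, without overlap and with a difference of 2.19 (adjusted p = 4.22e-05). Slc30a5 (ZnT5), which supplies zinc to secreted enzymes, differed by 0.47; it was no longer called without TDESM replicate 1 or 2 (adjusted p from 0.0698 to 0.0770) and when arrays were centred on housekeeping genes (adjusted p = 0.0946). Slc30a4, also of secretory vesicles, was at 9.25 ± 0.55 in TDECC and 9.80 ± 0.21 in TDESM and not called, except without TDECC replicate 2, at 0.86 (adjusted p = 0.00892; 0.00892 to 0.850 over all alternatives). The exporter of the plasma membrane, Slc30a1 (ZnT1), was at background in both strains (3.77 in TDECC and 3.78 in TDESM).

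The falls were small. Slc30a9 differed by -0.62, or -0.24 averaged over its probe sets, which was not called. Slc39a11 differed by -0.52; it was no longer called without TDESM replicate 1 or 2 (adjusted p from 0.0544 to 0.0675). Slc39a10 differed by -0.40; it was no longer called without TDECC replicate 1 or 3 or any 1 TDESM replicate (adjusted p from 0.0730 to 0.130). Without TDESM replicate 1 or 2 only 1 zinc carrier was lower.

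**Figure D4:**
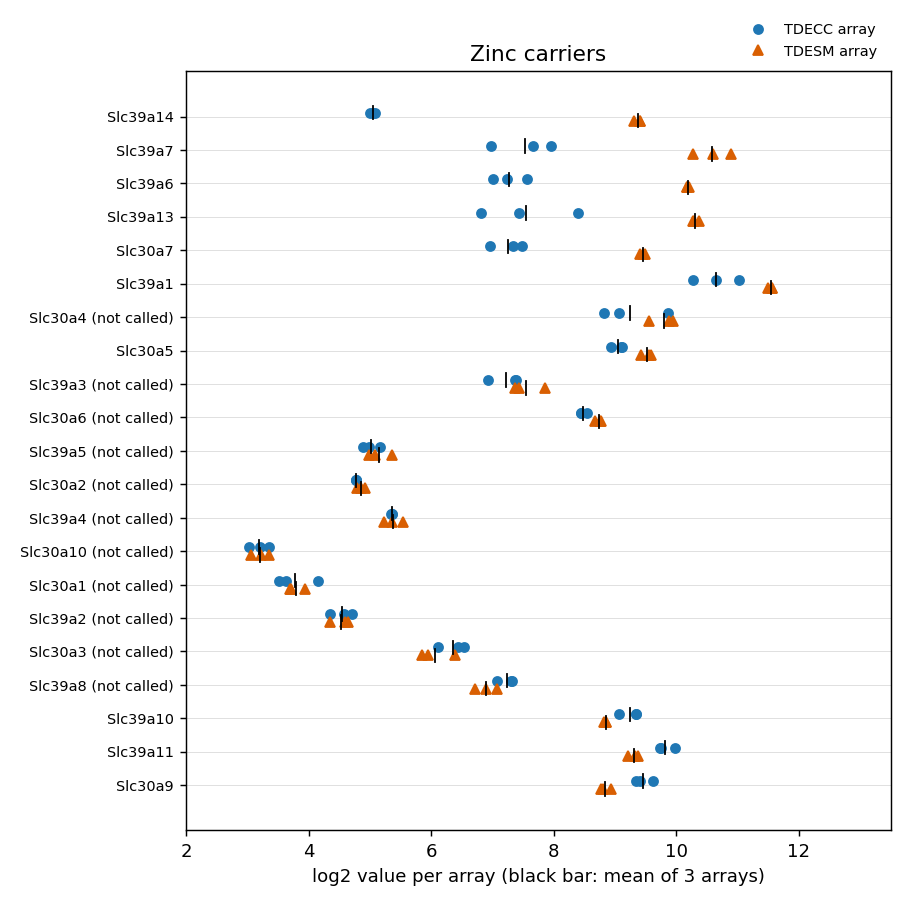
Values of each array for all 21 zinc carriers, ordered by difference, log2 scale on the x axis; circles are TDECC arrays, triangles TDESM arrays and black bars group means. Slc39a14, Slc39a7, Slc39a6, Slc39a13 and Slc30a7 at the top have separate groups, and Slc30a1 and Slc30a10 sit below 4.40 in both strains.

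The zinc-responsive factor MTF1 binds metal response elements (MRE), searched here as TGCACNC or TGCGCNC on both strands. A match stood in 24.2% of all promoters, in 31.9% of the 204 member promoters, in 8 of 17 promoters of zinc carriers and in 4 of the 5 such promoters of members called higher (Slc39a7, Slc39a13, Slc30a5 and Slc39a1, not Slc39a6). Slc39a14 and Slc30a7, also called higher, had no matched promoter and were not searched. The second form holds a CpG, and promoters of zinc carriers held a median of 27 CpG in 300 bases, against 17 for all members and 7 for all promoters; the part of this in the count of matches was not tested. Mtf1 itself stood at 8.94 in TDECC and 8.63 in TDESM, and its known targets Mt1 and Mt2A at 5.34 in TDECC and 5.38 in TDESM, and 7.45 in TDECC and 7.86 in TDESM, none of them called. The 3 promoters with more than 1 match among zinc carriers called higher are printed; Slc30a1, Slc30a2, Slc30a4 and Slc39a11, which were not called or lower, also held more than 1. The printed ones have the matches in capitals; some lie on both strands and overlap. Slc39a7 is at chr20:4824809-4825108 (plus strand), Slc39a13 at chr3:97502995-97503294 (minus strand) and Slc30a5 at chr2:33709849-33710148 (minus strand), from RefSeq, GRCr8.
Slc39a7: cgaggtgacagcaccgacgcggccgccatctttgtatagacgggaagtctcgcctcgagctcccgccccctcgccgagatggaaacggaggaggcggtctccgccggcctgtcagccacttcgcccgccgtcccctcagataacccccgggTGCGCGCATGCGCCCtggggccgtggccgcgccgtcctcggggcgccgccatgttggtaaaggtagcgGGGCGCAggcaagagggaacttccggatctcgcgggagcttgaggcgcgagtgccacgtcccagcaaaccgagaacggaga
Slc39a13: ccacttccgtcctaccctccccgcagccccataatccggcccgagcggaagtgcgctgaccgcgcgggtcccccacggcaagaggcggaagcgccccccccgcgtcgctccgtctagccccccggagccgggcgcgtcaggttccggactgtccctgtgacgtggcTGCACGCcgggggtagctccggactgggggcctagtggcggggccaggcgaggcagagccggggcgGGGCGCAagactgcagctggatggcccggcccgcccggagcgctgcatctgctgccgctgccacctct
Slc30a5: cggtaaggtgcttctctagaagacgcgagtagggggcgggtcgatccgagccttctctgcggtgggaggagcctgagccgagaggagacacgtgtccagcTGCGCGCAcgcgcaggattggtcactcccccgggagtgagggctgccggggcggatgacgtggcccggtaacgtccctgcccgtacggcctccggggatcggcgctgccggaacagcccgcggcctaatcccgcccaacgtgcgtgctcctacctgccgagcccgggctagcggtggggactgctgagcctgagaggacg

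Among ion carriers, 4 of the bicarbonate family were lower in the fibroblastic strain, while 2 calcium exchangers, both family 20 phosphate carriers and both copper carriers were higher. Within the bicarbonate family the calls of Slc4a3 and Slc4a7 depended on single arrays. Of 52 measured, 8 were higher, 10 lower and 34 not called (34.6% called, background 42.7%), with a median difference of -0.08. Without TDESM replicate 3 only 6 were lower, and centred on the poly-A controls the counts were 3 and 42.

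Family 4, that of the bicarbonate carriers, held 0 higher and 4 lower of 6, beside 22.1% and 20.6% of all genes. Slc4a4 (NBCe1), which brings sodium and bicarbonate into cells, read 8.25, 9.29 and 9.86 on the TDECC arrays and 5.29, 4.89 and 5.21 on the TDESM arrays. Slc4a11, a relative that moves protons or hydroxide rather than bicarbonate, read 11.73, 9.98 and 9.10 on the TDECC arrays and 6.49, 6.29 and 6.06 on the TDESM arrays. Both had separate groups with the TDECC arrays the more spread, and differences of -4.00 (adjusted p = 1.87e-04), or -3.40 averaged over its probe sets, and -3.99 (adjusted p = 0.00170). Slc4a7 (NBCn1) differed by -0.81; it was no longer called without TDECC replicate 2 or 3 or TDESM replicate 2 or 3 (adjusted p from 0.0881 to 0.112). Slc4a3, an anion exchanger, differed by -1.16; it was no longer called without TDECC replicate 1 or 2 or any 1 TDESM replicate (adjusted p from 0.0504 to 0.116). The 8 members of family 26, exchangers of chloride, bicarbonate and sulfate, were not called, with levels from 3.15 to 6.96. The highest of them was Slc26a6, at 6.96 in TDECC and 6.74 in TDESM.

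Of the cation-chloride carriers Slc12a2 (NKCC1), which loads secretory epithelia with chloride, was bright in both strains. It read 11.69, 10.39 and 11.74 on the TDECC arrays and 9.93, 10.04 and 9.93 on the TDESM arrays, so TDECC replicate 2 lay close to the TDESM values. The difference was -1.31 (adjusted p = 0.0221); it was no longer called without TDECC replicate 1 or 3 or any 1 TDESM replicate (adjusted p from 0.0554 to 0.0762). Slc12a4 (KCC1), which lets potassium and chloride out, went the other way, at 7.65, 6.42 and 6.28 on the TDECC arrays and 8.17, 8.45 and 8.70 on the TDESM arrays. Its groups were apart, by 1.66 (adjusted p = 0.00952). Slc12a9 differed by -0.83 and Slc12a8 by -0.91; for Slc12a8 it was no longer called without TDESM replicate 3 (adjusted p = 0.0503; 3.72e-08 to 0.0503 over all alternatives). Of the 7 sodium-proton exchangers measured, Slc9a5 was lower, at a difference of -2.05 (adjusted p = 0.00167) and Slc9a8, of the Golgi, at -1.02 (adjusted p = 0.00574). Slc9a9, of endosomes, was not called by its brightest probe set (5.87 in TDECC and 5.82 in TDESM) but was by its other one, at a difference of 1.81.

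A list of 22 channels and enzymes of chloride, bicarbonate and water secretion also held aquaporins and the potassium channel Kcnn4. Of these 22, 8 were lower, 2 higher and 12 not called (45.5% called, background 42.7%), with a median difference of -0.56. The water channels Aqp3 and Aqp5 and the potassium channel Kcnn4 were among the 8 lower, at -3.47, -1.26 and -3.04. Cftr, the chloride channel of duct epithelium, differed by -4.58 (adjusted p = 1.22e-05), Ano1, a calcium-gated chloride channel, by -5.80 (adjusted p = 5.93e-06), and Car2, which makes bicarbonate, by -3.69 (adjusted p = 1.54e-04). Car3, another carbonic anhydrase, was higher by 5.34 (adjusted p = 1.76e-05).

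Of the 8 exchangers of calcium for sodium, 2 were higher and 1 lower, beside 22.1% and 20.6% of all genes. Slc8a1 (NCX1), the exchanger of heart and smooth muscle, read 3.50, 3.21 and 3.50 on the TDECC arrays and 9.96, 10.11 and 10.08 on the TDESM arrays. All TDECC arrays were below background level, and the difference was 6.65 (SE 0.13, adjusted p = 1.47e-07), or 3.79 with the mean of both probe sets, of which the dimmer differed by 0.92. Slc24a3 (NCKX3), which exchanges calcium and potassium for sodium, read 5.25, 4.66 and 4.79 on the TDECC arrays and 9.17, 9.28 and 9.35 on the TDESM arrays, a difference of 4.37 (adjusted p = 2.12e-06), or 2.53 with the mean. Its dimmer probe set, at 0.70, was not called. Slc8a3 (NCX3) was lower, at a difference of -0.68 (adjusted p = 0.00547) at low levels. Of 23 pump genes and subunits, 1 was higher and 4 lower (21.7% called, background 42.7%): Atp2b1, the calcium pump of the plasma membrane, differed by -2.07 (adjusted p = 3.60e-04) and Fxyd5, a regulator of the sodium pump, by 3.64 (adjusted p = 0.00744). The sodium pump subunits Atp1b1 and Atp1b3 stood at 10.70 in TDECC and 10.83 in TDESM, and 11.71 in TDECC and 12.05 in TDESM, neither called.

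The widely used phosphate carriers Slc20a1 (PiT1) and Slc20a2 (PiT2) were both higher. Slc20a1 read 9.77, 10.40 and 9.62 on the TDECC arrays and 11.19, 11.43 and 11.85 on the TDESM arrays, without overlap, and the differences were 1.56 (adjusted p = 0.00243) and 1.38 (adjusted p = 4.20e-04). Slc34a2 (NaPi-IIb), the phosphate carrier of epithelia, differed between the TDECC arrays more than any other member. It read 4.02, 8.36 and 7.83 on the TDECC arrays and 3.94, 3.89 and 3.87 on the TDESM arrays. TDECC replicate 1 lay at the TDESM level and the other TDECC arrays about 4 log2 units above it. The difference of -2.84 was not called (adjusted p = 0.0674), and was -4.20 (adjusted p = 1.02e-05; 4.22e-27 to 0.178 over all alternatives) without that array.

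The copper carriers were higher in TDESM, Slc31a1 (CTR1), the uptake carrier, by 1.28 (adjusted p = 4.80e-04) and Slc31a2 by 1.50 (adjusted p = 0.00366). Of the magnesium carriers Slc41a3 was higher by 1.97 (adjusted p = 0.00383). Slc41a2 read 8.43, 6.92 and 5.65 on the TDECC arrays and 8.48, 8.68 and 8.69 on the TDESM arrays and was not called (adjusted p = 0.0774), but was without TDECC replicate 1, at 2.33 (adjusted p = 0.00264; 0.00264 to 0.306 over all alternatives). The iron importer Slc11a2 (DMT1) stood at 8.82 ± 0.52 in TDECC and 8.99 ± 0.11 in TDESM and was called only without TDECC replicate 1 among the arrays left out, at 0.46 (adjusted p = 0.0431; 0.00585 to 0.976 over all alternatives). The exporter Slc40a1 (ferroportin) stood at 6.49 ± 0.50 in TDECC and 6.06 ± 0.12 in TDESM and was not called. Of 20 other genes of zinc and iron handling, 6 were higher and 3 lower (45% called, background 42.7%). Heph, the ferroxidase that works with ferroportin, differed by -6.26 (adjusted p = 1.07e-06) and Tfrc, the transferrin receptor, by -1.76 (adjusted p = 0.00241). Steap1, Steap2 and Cybrd1, of metal reductase families, were higher, by 4.24, 4.23 and 4.01. Steap4 went the other way, at a difference of -1.76 (adjusted p = 0.00149).

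**Figure D5:**
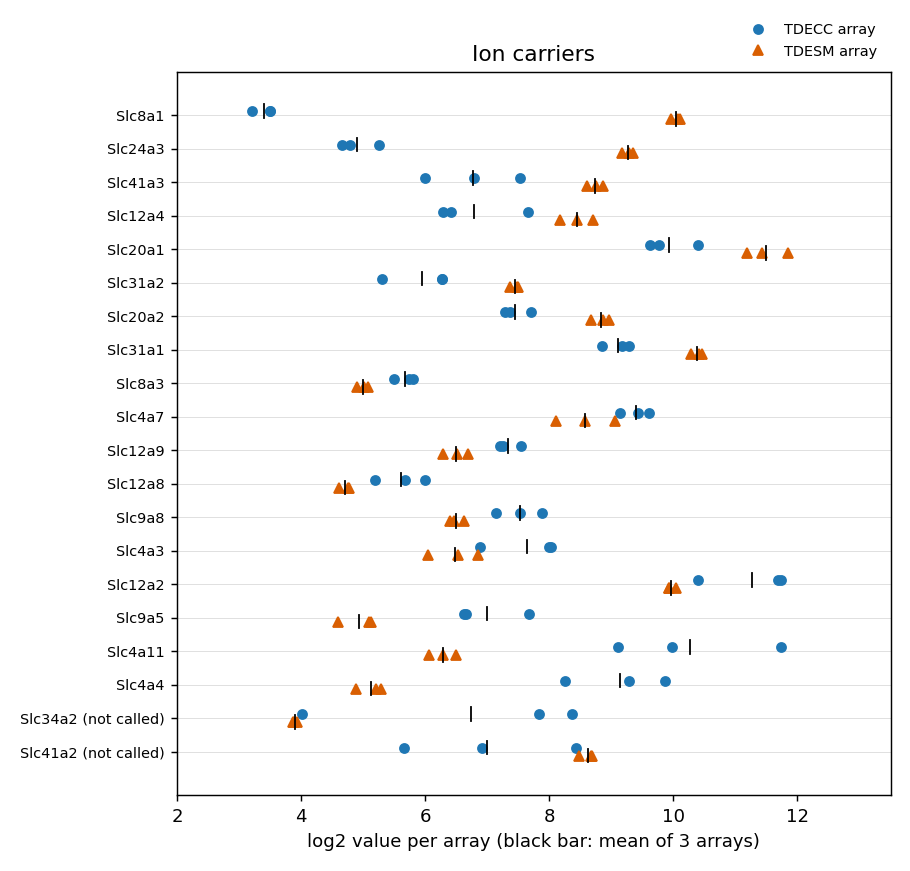
Values of each array for the 18 called ion carriers and 2 that were not called, log2 scale on the x axis; circles are TDECC arrays, triangles TDESM arrays and black bars group means. Slc8a1 and Slc24a3 have TDESM far to the right, Slc4a4 and Slc4a11 have TDECC to the right, and for Slc34a2 TDECC replicate 1 (4.02) sits on the TDESM values.

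Among carriers of sugars and their nucleotide-linked forms, 10 of 38 were higher, 7 lower and 21 not called (44.7% called, background 42.7%), with a median difference of 0.10, or -0.06 centred on housekeeping genes. Centred on the poly-A controls 2 were higher and 27 lower. Family 35, many of whose members supply the Golgi and endoplasmic reticulum with the building blocks of glycans, makes up most of this group. It held 8 of the 10 higher genes. These were 4 of 10 members grouped as nucleotide sugar carriers, 3 of 9 grouped as of unsettled substrate, and the ATP carrier Slc35b1. Of all genes 22.1% were higher. Slc35a2, the UDP-galactose carrier, read 6.12, 5.84 and 5.62 on the TDECC arrays and 8.48, 8.67 and 8.83 on the TDESM arrays, with the groups about 2 log2 units apart at their nearest, and differed by 2.80 (SE 0.17, adjusted p = 1.67e-05). Slc35b1, which brings ATP into the endoplasmic reticulum, read 9.62, 9.04 and 9.19 on the TDECC arrays and 11.07, 11.10 and 11.16 on the TDESM arrays, also without overlap. It differed by 1.83 (adjusted p = 1.54e-04), or 1.20 with the mean of both probe sets. Slc35b4 (UDP-xylose and UDP-N-acetylglucosamine) differed by 0.77 and Slc35c1 (GDP-fucose) by 0.54, both below the poly-A shift; for Slc35c1 it was no longer called without TDESM replicate 2 (adjusted p = 0.0605; 0.00945 to 0.0751 over all alternatives) and when arrays were centred on housekeeping genes (adjusted p = 0.0751). Slc35a4, Slc35e4, Slc35f2 and Slc35f5, whose substrates are less settled, differed by 1.43, 1.36, 2.35 and 1.91.

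The members of the family that were lower were Slc35b3, which brings the sulfate donor PAPS into the Golgi, by -1.19 (adjusted p = 0.00243), and Slc35a1, the CMP-sialic acid carrier, by -0.56. For Slc35a1 it was no longer called without TDESM replicate 2 or 3 (adjusted p from 0.0586 to 0.0686), and the mean of its 4 probe sets differed by only -0.09. The second PAPS carrier, Slc35b2, stood at 8.60 in TDECC and 8.95 in TDESM and was not called.

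Of the hexose carriers measured here (family 2 without Slc2a1 and Slc2a3), all but Slc2a6, Slc2a8 and Slc2a4 had a mean over all arrays below 5.80. Slc2a6 (GLUT6), a carrier of inner membranes, read 8.60, 8.65 and 7.22 on the TDECC arrays and 5.83, 5.58 and 5.69 on the TDESM arrays. It was lower, at a difference of -2.46 (adjusted p = 0.00176). Slc2a8, of inner membranes too, was not called, at 7.61 in TDECC and 7.31 in TDESM. Slc2a2, Slc2a4 and the sodium-coupled Slc5a1, the carriers of liver, muscle and gut, were not called, at 2.98 in TDECC and 3.01 in TDESM, at 6.12, 5.97 and 5.92 on the TDECC arrays and 6.31, 5.97 and 5.59 on the TDESM arrays, and at 5.22 in TDECC and 4.97 in TDESM. Slc2a13, a myo-inositol carrier, differed by 0.93 by its brighter probe set and by 2.41 with the mean of both, while Slc5a3, which also takes up myo-inositol, was lower, at a difference of -0.76. Slc37a1, which exchanges glucose 6-phosphate for phosphate, read 7.89, 8.64 and 8.09 on the TDECC arrays and 6.05, 6.02 and 6.02 on the TDESM arrays. Slc45a4, a proton-coupled sucrose carrier relative, read 9.42, 9.26 and 9.66 on the TDECC arrays and 6.55, 6.96 and 7.08 on the TDESM arrays. Both were lower without overlap, at differences of -2.18 (adjusted p = 1.47e-04) and -2.58 (adjusted p = 3.84e-05). Slc45a3 differed by -1.16. Slc50a1, a SWEET-type sugar carrier, was higher by 1.39 (adjusted p = 0.00477).

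Few organic anion carriers differed, and most stood near background. Of 29 measured, 4 were higher, 1 lower and 24 not called (17.2% called, background 42.7%), or 0 higher and 25 lower centred on the poly-A controls. The count higher was 2 without TDESM replicate 1 and 1 without TDESM replicate 2, and the count lower was 4 without TDECC replicate 1 and 2 without TDECC replicate 2 or 3. Their median levels were 4.72 (TDECC) and 4.92 (TDESM). Slc16a6, of the monocarboxylate family, was the member called lower. It read 8.03, 7.88 and 7.75 on the TDECC arrays and 4.98, 5.12 and 4.87 on the TDESM arrays, without overlap and with TDESM near background, a difference of -2.90 (SE 0.13, adjusted p = 4.21e-06). Slc16a7 (MCT2), which takes up lactate and pyruvate, was higher by 1.27; it was no longer called without TDECC replicate 2 or 3 or any 1 TDESM replicate (adjusted p from 0.0564 to 0.113). Slc16a1 (MCT1), a carrier of lactate and pyruvate, was bright in both strains, with 9.99, 10.91 and 9.95 on the TDECC arrays and 9.53, 9.54 and 9.46 on the TDESM arrays. Its difference of -0.77 did not pass (adjusted p = 0.0502). It passed without any 1 TDECC replicate, at -0.92, -0.46 and -0.94, and over all alternatives the adjusted p ranged from 2.66e-07 to 0.140. Basigin (Bsg), the chaperone of MCT1, stood at 11.97 in TDECC and 11.58 in TDESM, and embigin (Emb), that of MCT2, at 5.04 in TDECC and 8.43 in TDESM. Only embigin was called, by 3.39 (adjusted p = 1.50e-05).

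The bile acid carriers Slc10a1 (NTCP) and Slc51a (OST-alpha) were at background in both strains (3.12 in TDECC and 2.93 in TDESM, and 5.12 in TDECC and 5.21 in TDESM). Slc10a3, an orphan of that family, differed by 1.02 (adjusted p = 0.00637), and its sign turned under the poly-A centring, at -0.20. Slc10a4 and the anion carrier Slc22a25 were higher near background, by 0.71 and 0.45, below the poly-A shift. For Slc10a4 it was no longer called without TDESM replicate 2 (adjusted p = 0.0671; 0.00835 to 0.183 over all alternatives). For Slc22a25 it was no longer called without TDESM replicate 1 or 2 (adjusted p from 0.0802 to 0.0849) and when arrays were centred on housekeeping genes (adjusted p = 0.145). Of 12 Slco genes, the related organic anion carriers outside the Slc numbering, 2 were higher and 2 lower (33.3% called, background 42.7%): Slco4a1, a thyroid hormone carrier, differed by -4.77 (adjusted p = 7.18e-05), Slco2a1, which clears prostaglandins, by -2.87 (adjusted p = 0.00225) while Slco3a1 was higher, at 5.14 in TDECC and 7.14 in TDESM (adjusted p = 0.00469).

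The other 62 members were mainly carriers of vitamins, choline, nucleosides, peptides, urea, organic cations and neurotransmitters. Of these 62, 9 were higher, 14 lower and 39 not called (37.1% called, background 42.7%), or 4 and 52 centred on the poly-A controls. The share lower was close to the 20.6% of all genes, of which 22.1% were higher. Slc14a1, a urea carrier, was at the bottom of the range in TDESM by its brighter probe set. It read 9.40, 10.53 and 8.87 on the TDECC arrays and 2.82, 3.41 and 3.01 on the TDESM arrays, a difference of -6.52 (SE 0.41, adjusted p = 2.01e-05), or -3.81 with the mean of both probe sets, of which the dimmer differed by -1.10. All TDECC values were far above those of TDESM.

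The 3 choline carriers of family 44 measured were lower, beside 20.6% of all genes. Slc5a7, a choline carrier of another family, was below the background level at 3.13 in TDECC and 3.04 in TDESM and not called. Slc44a1, the general choline carrier, read 11.75, 12.21 and 11.65 on the TDECC arrays and 7.87, 7.73 and 7.74 on the TDESM arrays, far apart and with little spread. Slc44a4, of epithelia, read 6.32, 8.91 and 9.04 on the TDECC arrays and 3.75, 4.01 and 3.73 on the TDESM arrays. TDECC replicate 1 was the lowest of its group but still above all TDESM arrays. The differences were -4.09 (adjusted p = 2.56e-06), or -2.94 averaged over 3 probe sets, -4.26 (adjusted p = 0.00223) and, for Slc44a2, -1.02 (adjusted p = 0.00380).

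Of 11 members grouped as vitamin carriers and their relatives, 5 were lower and 2 higher, beside 20.6% and 22.1% of all genes. Slc19a2, which takes up thiamine, read 9.31, 10.12 and 10.80 on the TDECC arrays and 6.18, 6.16 and 6.18 on the TDESM arrays, a difference of -3.90 (adjusted p = 1.19e-04). The folate carrier Slc19a1 did not pass at 7.83 ± 0.37 in TDECC and 8.07 ± 0.16 in TDESM, but did without TDECC replicate 1, at 0.46 (adjusted p = 0.0364; 0.0104 to 0.720 over all alternatives). Slc52a3, for riboflavin, differed by -1.77, Slc46a3, of lysosomes, by -1.70, and Slc23a3 and Slc23a4, relatives of the ascorbate carriers, by -1.38 and -2.02. Slc23a2 (SVCT2), which takes up the ascorbate that collagen-making enzymes need, went the other way, at 6.45 in TDECC and 8.06 in TDESM, a difference of 1.61 (adjusted p = 0.00607) by its brighter probe set. With the mean of both probe sets it was 0.79, and the dimmer probe set, at -0.03, was not called. Slc46a1, for folate, was higher by 0.72, below the poly-A shift.

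The equilibrative nucleoside carriers were higher where they differed. Slc29a1 (ENT1), of the plasma membrane, read 4.26, 4.30 and 4.20 on the TDECC arrays and 7.29, 7.43 and 7.63 on the TDESM arrays. Slc29a3 (ENT3), of lysosomes, read 4.95, 5.26 and 4.89 on the TDECC arrays and 8.07, 8.33 and 8.66 on the TDESM arrays. In both, TDECC lay near background and all TDESM values above 7, with differences of 3.20 (adjusted p = 2.24e-06) and 3.32 (adjusted p = 1.17e-05). Slc29a2 was at 7.77 in TDECC and 7.97 in TDESM and not called, and the 3 concentrative carriers of family 28 were near background.

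Slc66a3, a relative of lysosomal amino acid carriers whose substrate is unsettled, had the highest value of the members in TDESM. It read 8.33, 5.33 and 6.77 on the TDECC arrays and 12.58, 12.56 and 12.60 on the TDESM arrays. The TDESM arrays nearly coincided, the TDECC arrays were widely spread, and the difference was 5.77 (SE 0.67, adjusted p = 4.59e-04). Slc66a2, its relative, differed by 1.12. Slc48a1, which moves heme out of lysosomes, was higher by 1.45 (adjusted p = 6.20e-05). Slc22a17, a receptor for the iron-binding protein lipocalin 2, stood at 4.11 in TDECC and 7.10 in TDESM, a difference of 2.99 (adjusted p = 5.16e-06).

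Of 10 members grouped with the carriers of organic cations and carnitine, 2 were higher and 2 lower, beside 22.1% and 20.6% of all genes. Slc22a23, an orphan, differed by -3.97 (adjusted p = 2.60e-04), or -2.29 with the mean of both probe sets, and Slc22a18 by -2.90 (adjusted p = 0.00233). The dimmer probe set of Slc22a23, at -0.61, was not called. Slc22a5 (OCTN2), which takes up carnitine, read 6.79, 8.03 and 8.98 on the TDECC arrays and 6.45, 6.52 and 6.71 on the TDESM arrays; all TDECC values were above those of TDESM, but the difference of -1.37 did not pass (adjusted p = 0.0634). It passed without TDECC replicate 1, at -1.95 (adjusted p = 0.00207; 1.30e-11 to 0.159 over all alternatives), and when arrays were centred on housekeeping genes, at -1.53. Slc22a15 was higher by 0.53; it was no longer called without TDECC replicate 1 or 3 or any 1 TDESM replicate (adjusted p from 0.0670 to 0.130) and when arrays were centred on housekeeping genes (adjusted p = 0.0964). Of 5 fatty acid carriers of family 27, Slc27a3, which activates fatty acids, was lower, at a difference of -2.93 (adjusted p = 1.96e-04), or -1.55 with the mean of both probe sets. Its dimmer probe set, at -0.17, was not called. Slc15a4, a lysosomal peptide and histidine carrier, was lower, at a difference of -0.45; it was no longer called without TDECC replicate 1 or 3 or any 1 TDESM replicate (adjusted p from 0.0504 to 0.153). The 12 carriers of neurotransmitters and amines were not called. Slc4a1ap and Slc7a6os belong to the list by name, but are not carriers; they differed by -0.75 (called) and 0.38 (not called).

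Of 16 scaffolds, chaperones and kinases that hold or regulate carriers, 5 were higher, 5 lower and 6 not called (62.5% called, background 42.7%). Nherf1 and Ezr, which anchor carriers under the apical membrane, were lower, at differences of -1.65 (adjusted p = 1.23e-04) and -1.41 (adjusted p = 5.88e-05). Nherf2, a relative of the first, was higher by 2.26 (adjusted p = 2.09e-05), and so was Stk39, a kinase that regulates cation-chloride carriers, by 2.16 (adjusted p = 3.53e-05). Wnk1, which acts above that kinase, stood at 10.49 in TDECC and 10.53 in TDESM.

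As over all genes, the carriers varied more between the TDECC arrays than between the TDESM arrays. The median SD was 0.22 and 0.12 (n = 3), beside 0.24 and 0.12 for all genes, and the SD was larger in TDECC for 73.5% of members (77.2% of all genes). It passed 1 for 11 of 249 members in TDECC and for 0 in TDESM, beside 410 of 14217 genes in TDECC and 0 in TDESM. The members with the largest SD were Slc34a2, Slc17a6, Slc44a4, Slc6a14 and Slc66a3. TDECC replicate 1 was the lowest for Slc34a2, Slc44a4 and Slc6a14 and the highest for Slc17a6, a vesicular glutamate carrier (7.14, 3.98 and 5.33 on the TDECC arrays and 5.33, 5.36 and 5.02 on the TDESM arrays), and Slc66a3. It was also the highest for Slc4a11 and Slc1a1. On the same TDECC arrays the epithelial mean was 13.54, 13.78 and 13.76 and Acta2 6.02, 6.10 and 7.71; their part in this spread was not tested. Leaving out TDECC replicate 1 raised the count of members to 59 higher and 46 lower, and that of all genes to 3425 and 3012.

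Probe sets of 1 gene were in no case called in opposite directions. Of 65 such members, all probe sets were called the same way for 19, none was called for 34 and some for 12. The differences of 16 varied by more than 1 between probe sets. In 4 members (Slc9a9, Slc38a1, Slc6a9 and Slc33a1) a dimmer probe set was called and the brightest was not. For 13 members, Slc7a5 and Slc16a7 among those called, the probe set used is of a type that can match several transcripts. The promoters of called members held a median of 22 CpG where higher and 19 where lower, against 13 for those not called; members below the array median of 5.80 held 7 and the rest 21.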

How the data were processed

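The authors deposited log2 values per probe set, made with RMA per the submitters' processing notes, which name no version. RMA usually includes a step that gives arrays equal distributions, and a difference in total mRNA between strains is then lost. Array medians were 5.80 to 5.86, the highest values 14.60 to 14.76, and precision is set by the 3 arrays a strain. Of 31099 probe sets 57 are controls; 20826 name 1 gene in the platform annotation, 436 name several and 9780 are unnamed here. Entrez identifiers of all 249 members were found in RefSeq (GRCr8). Each gene was represented by the brightest of its probe sets over all arrays, unfiltered. TDESM minus TDECC was fitted on all 14217 genes with limma 3.58.1 in R 4.3.3 (lmFit, eBayes, two-sided, Benjamini-Hochberg, threshold 0.05), without a replicate block; all adjusted p-values come from it. With 3 against 3 arrays an exact permutation test cannot go below 0.1. The fit was tested on simulated data. Slc genes were grouped by substrate from a list by family, 4 of whose entries were set by symbol after the data were seen. Named genes were up to 5 each way per group with the largest called, non-overlapping differences, a list of well-known carriers, any gene whose probe sets were called in opposite directions (there were 0), and Acta2. Others were named after their values were seen: further called members, members with a large spread or an array-dependent call, and members of the partner lists. The members and lists were chosen with earlier results of these data known. Alternatives were cyclic loess, other centrings, a filter on the dimmest 33.3%, the mean of probe sets, trend and robust eBayes, the replicate block, each array left out, a minimum difference of 1, and counting every probe set.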

Additional observations from a re-analysis of the deposited data

How the results depend on the processing

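Of the 93 solute carrier calls, 92 were kept with cyclic loess, 88 centred on housekeeping genes, 91 with the mean of probe sets, 90 with trend and robust eBayes and all 77 measured without the dimmest genes, and 76 were kept whichever 1 array was left out; none of these turned a call. Centred on the poly-A controls 61 calls were kept, 29 lost and 3 turned, and 150 were gained. Leaving out 1 array gave 45 to 59 members higher and 32 to 46 lower, ion carriers lower 6 to 11, zinc carriers lower 1 to 3, and organic anion carriers higher 1 to 5 and lower 1 to 4. The poly-A centring moved most counts: 898 higher and 10873 lower of all genes, 21 and 193 of members, 7 and 33 of amino acid, 3 and 42 of ion, 0 and 25 of organic anion, 4 and 52 of other and 2 and 27 of sugar carriers, and 14 zinc carriers lower. It turned the sign of Slc3a2 to -0.39, Slc38a2 to -0.57, Slc2a2 to -1.19, Slc11a2 to -1.05, Slc30a1 to -1.20, Slc19a1 to -0.98, Slc10a3 to -0.20, Slc10a4 to -0.51 and Slc22a25 to -0.77. Organic anion carriers lower were 2 under the housekeeping centring, trend and robust eBayes, the replicate block, probe sets in place of genes, and without the dimmest genes, where organic anion carriers higher were 2 and amino acid carriers lower 2. A minimum difference of 1 left 1906 higher and 1717 lower of all genes, amino acid carriers lower 3, ion carriers lower 6, organic anion carriers higher 2 and zinc carriers lower 0; the cause is that small differences are not counted. Counting probe sets gave 5559 and 5911 over all probe sets, unnamed ones included (4347 and 4072 of the 20826 with 1 symbol), amino acid carriers lower 8 and ion carriers higher 15, since more features are counted. For the other changes the cause was not tested. Same-numbered arrays did not deviate together (correlations of -0.0666, 0.0219 and -0.1427 for numbers 1, 2 and 3). Whether they shared a culture or day is not stated, and such correlations cannot settle it. With the replicate block 49 members were higher and 39 lower (2750 and 2592 of all genes), with 83 calls kept, 10 lost and 5 gained. Dim probe sets near background limit what a difference can show, 3 arrays of 1 clone a strain limit it to these strains, and other probe sets of 16 members differed by more than 1.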
